A study of Rattus norvegicus with 12 samples.

Results

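Hemoglobin and red cell genes were followed in whole left ventricle of the rat heart through 6 genes: the beta-globins Hbb and Hbb-b1, the alpha-globin Hba-a1, and 3 genes of the developing red cell, Alas2, Ahsp and Slc4a1. All array probes whose target maps to one of these symbols were taken, which gave 10 probes, of 6 genes among 15715 with a symbol on the array. The 10 probes were each well above background on all 12 arrays and all entered the test, as did probes of 11211 genes in all. The genes were chosen by measured values of these same arrays: the difference that angiotensin II (AngII) made to a beta-globin on normal sodium was known beforehand, so that difference is described here without a test. Of the other 3 comparisons, only AngII against no AngII on low sodium takes its difference from no array of that one. Its standard error is still pooled over all 12 arrays.

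The tissue came from male Sprague-Dawley rats, and every rat ate a diet with 60% fructose for 8 weeks, controls included. Sodium was either normal (0.64% NaCl) or low (below 0.01% NaCl), with 40 rats started on each diet. After the first 4 weeks, part of each diet group received AngII, the pressor peptide of the renin-angiotensin system, under the skin at 200 ng/kg/min for 4 weeks. This gave 4 groups of 3 arrays, named here by diet and by whether AngII was given. The labels give each array a replicate number without mention of pooling, and arrays are taken here as single ventricles. They give neither the animals' age nor whether the hearts were flushed of blood.

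Hemoglobin is a tetramer of alpha- and beta-globin chains, each holding a heme. Red cell precursors make heme with an erythroid form of aminolevulinate synthase, the product of Alas2, which starts the pathway; Ahsp, the alpha hemoglobin stabilizing protein, binds free alpha chains until they meet a beta chain; and Slc4a1 is band 3, the chloride-bicarbonate exchanger that anchors the red cell membrane to its skeleton. Mature mammalian red cells have no nucleus, and young ones, the reticulocytes, still carry globin mRNA and circulate in the vessels of every tissue. In such bulk samples, a different number of red cells and a different amount of RNA per cell cannot be told apart.

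The signal on each array is given as the log2 of the spot intensity minus the log2 of that array's 75th percentile, so 0 is the 75th percentile of the array and a difference of 1 is a doubling. The percentile itself lay between 1399 and 1988 intensity units. Of 12 cardiomyocyte genes listed, 11 had a probe and all 11 were well above background on every array. Among red cell markers, Hbb, Hba-a1, Alas2, Ahsp and Slc4a1 were above background on all 12 arrays. The membrane skeleton gene Epb42 reached it on 3 arrays and the blood group gene Rhag on 1. Each of the 3 slides carried 1 array of every group under 1 replicate number, and each group kept the same position on its slide, so position and group cannot be told apart.

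The 250 bases before the start of 4 of the genes are shown because these genes moved together over the arrays, as described below. For Hba-a1 this holds for the dimmer probe only. They are RefSeq sequences of assembly GRCr8, read 5′ to 3′ on the strand of the gene: Hbb at chr1:167663722-167663971 (minus strand), Hbb-b1 at chr1:167643521-167643770 (minus strand), Hba-a1 at chr10:15842581-15842830 (minus strand) and Alas2 at chrX:22895200-22895449 (plus strand). Capitals mark matches on either strand. The letters searched were AGATAA or, as a second form of the core that GATA factors bind, TGATAA. KLF1, the erythroid Krüppel-like factor, binds CACCC. The other two searches were for the box CCAAT and for the TATA-like box ATAAAA.
Hbb: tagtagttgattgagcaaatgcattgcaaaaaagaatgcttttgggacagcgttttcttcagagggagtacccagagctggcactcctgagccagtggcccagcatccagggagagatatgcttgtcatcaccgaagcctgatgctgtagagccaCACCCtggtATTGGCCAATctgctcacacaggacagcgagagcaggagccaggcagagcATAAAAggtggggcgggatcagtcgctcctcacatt
Hbb-b1: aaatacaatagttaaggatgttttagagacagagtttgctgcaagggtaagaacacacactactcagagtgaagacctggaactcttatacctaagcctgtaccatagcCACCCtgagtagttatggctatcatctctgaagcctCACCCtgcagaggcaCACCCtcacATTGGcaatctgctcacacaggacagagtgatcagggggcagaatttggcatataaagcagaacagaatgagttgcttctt
Hba-a1: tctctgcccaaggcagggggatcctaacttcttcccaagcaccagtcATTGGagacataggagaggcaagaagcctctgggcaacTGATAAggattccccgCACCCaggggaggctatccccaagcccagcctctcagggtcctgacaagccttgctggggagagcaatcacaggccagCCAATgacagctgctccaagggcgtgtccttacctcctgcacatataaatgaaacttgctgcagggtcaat
Alas2: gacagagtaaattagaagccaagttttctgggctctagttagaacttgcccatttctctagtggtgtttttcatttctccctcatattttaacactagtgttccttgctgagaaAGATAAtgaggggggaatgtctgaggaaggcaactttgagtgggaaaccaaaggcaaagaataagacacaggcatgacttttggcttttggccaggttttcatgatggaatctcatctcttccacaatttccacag

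The CACCC letters occurred 3 times before Hbb-b1, at bases 141 to 137, 105 to 101 and 90 to 86 before the start, once before Hbb and once before Hba-a1. CCAAT, counted on both strands, occurred 2 times before Hbb and before Hba-a1 and 1 time before Hbb-b1. The GATA core was found 1 time before Hba-a1, as TGATAA at bases 165 to 160, and 1 time before Alas2, as AGATAA at bases 136 to 131. No match overlapped another. Among 33469 RefSeq windows of this length, 49.2% hold CACCC, 34.0% CCAAT, 18.6% ATAAAA and 16.9% the GATA core, and a match is a description of letters, not of a site in use. Several globin genes are close copies: over these windows Hbb-b1 was identical at 97.2% of aligned positions to Hbb-b2, 95.7% to Hbbl1 and 93.6% to Hbb-bs, and at 61.8% to Hbb, and Hba-a1 at 96.4% to Hba-a2. These windows lie before the transcript, and probe sequences were not compared. A probe for one copy may also take up RNA of another, which was not tested, so the symbol of a globin probe may stand for more than a single gene.

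Hbb-b1, an adult beta-globin, stood lowest without AngII and highest with it among rats on normal sodium. On its brighter probe (A_64_P088393) the normal sodium arrays read 6.60, 6.27 and 6.40 for replicates 1, 2 and 3. With AngII they read 7.30, 7.36 and 7.47. All 3 infused ventricles were above all 3 uninfused ones, with means of 6.42 ± 0.17 and 7.38 ± 0.09 (SD, n = 3 each). The low sodium arrays read 7.14, 6.73 and 6.65, and those of low sodium with AngII 7.03, 6.89 and 7.08. The low sodium groups overlapped each other and lay between the normal sodium groups, with means of 6.84 ± 0.27 and 7.0 ± 0.10. The difference that AngII made was 0.95 ± 0.15 on normal sodium (log2 ± limma standard error), or 1.94-fold, and 0.16 ± 0.15 on low sodium. Within the slides it was 0.70, 1.09 and 1.07 on normal sodium, against -0.11, 0.16 and 0.43 on low sodium.

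The dimmer Hbb-b1 probe (A_64_P088392) gave nearly the same picture, with a correlation of 0.992 to the brighter one over the 12 arrays. Its normal sodium arrays read 6.46, 6.26 and 6.29, and those with AngII 7.19, 7.24 and 7.25. The low sodium arrays read 7.0, 6.70 and 6.57, and those of low sodium with AngII 6.96, 6.80 and 6.91. Normal sodium with AngII held the 3 highest arrays on both probes, and its replicates lay closer together than those of any other group on both. AngII made a difference of 0.89 ± 0.12 on normal sodium and 0.14 ± 0.12 on low sodium. The probes parted when the background was corrected with normexp, to 1.28 on the brighter and 0.66 on the dimmer probe on normal sodium, both still above 0.

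Hbb, the second beta-globin of the set, has a bright and a much dimmer probe. The brighter one (A_64_P028036) read 6.04, 5.67 and 5.83 on normal sodium and 6.47, 6.48 and 6.72 when AngII was added. Low sodium gave 6.33, 6.12 and 5.86, and low sodium with AngII 6.26, 6.0 and 6.10. The normal sodium groups did not overlap and the low sodium groups did. AngII made a difference of 0.71 ± 0.15, or 1.64-fold, on normal sodium and 0.02 ± 0.15 on low sodium.

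The dimmer Hbb probe (A_44_P306307) went the same way. It read 2.43, 1.79 and 2.03 on normal sodium against 3.24, 3.51 and 3.69 with AngII. The low sodium arrays read 3.01, 2.38 and 2.63, and with AngII 2.94, 2.65 and 2.87. Its normal sodium groups stood apart by more than their whole ranges. The difference was 1.40 ± 0.21, or 2.64-fold, on normal sodium and 0.15 ± 0.21 on low sodium. The Hbb probes correlated at 0.938 over the 12 arrays, and the difference on normal sodium was larger on the dimmer one.

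**Figure D1:**
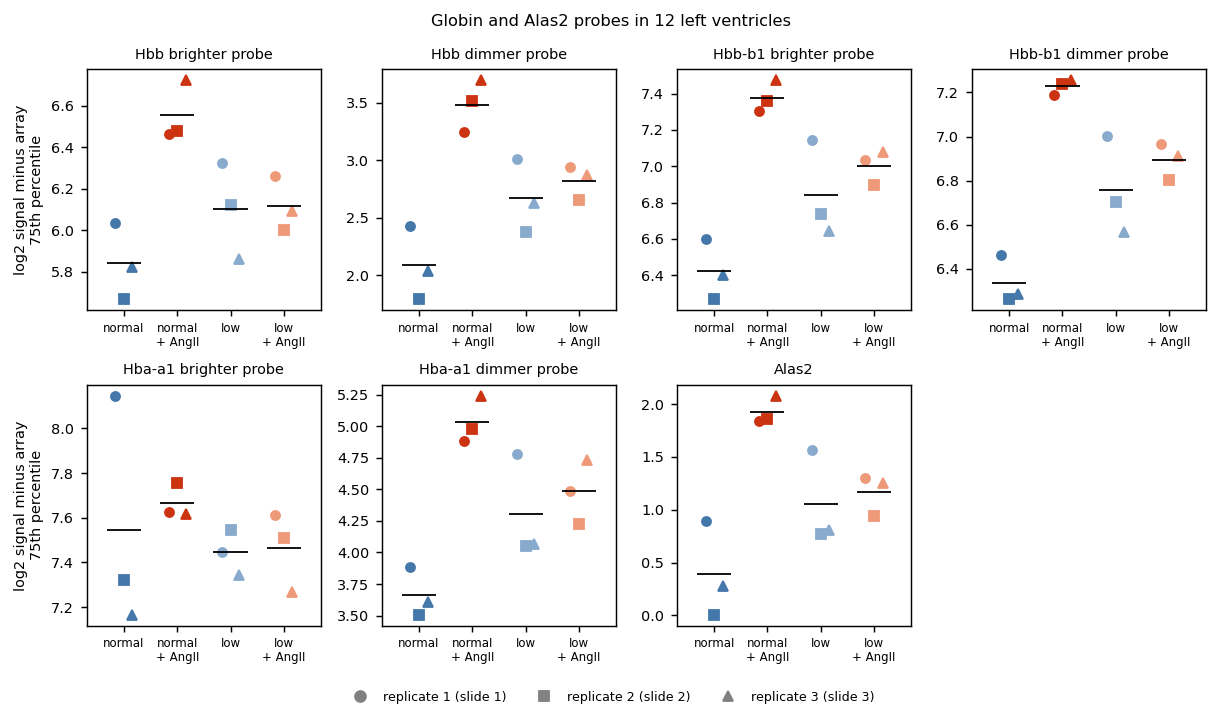
Level of each globin and Alas2 probe (vertical axis, log2 signal minus the 75th percentile of the array) on the 12 arrays by sodium diet and AngII (horizontal axis); each point is 1 array, marker shapes give the replicate and slide, and the black line is the group mean of 3. Apart from the brighter Hba-a1 probe, each panel has its 3 highest arrays on normal sodium with AngII, the low sodium groups overlap, and the vertical scales differ between panels.

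The alpha-globin Hba-a1 is the one globin whose probes disagreed. On the dimmer probe (A_64_P032502) the normal sodium arrays read 3.89, 3.51 and 3.60, and those with AngII 4.88, 4.98 and 5.24. The low sodium arrays read 4.78, 4.05 and 4.07, and with AngII 4.49, 4.23 and 4.73. As on Hbb-b1, the normal sodium groups were apart and all 6 low sodium arrays lay between them. The difference was 1.37 ± 0.21, or 2.58-fold, on normal sodium and 0.18 ± 0.21 on low sodium.

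The brighter Hba-a1 probe (A_64_P032499), with intensities of 253630 to 396119 the brightest of the 10 probes, showed little of this. It read 8.15, 7.32 and 7.17 on normal sodium and 7.63, 7.76 and 7.61 with AngII. On low sodium it read 7.45, 7.55 and 7.35, and with AngII 7.61, 7.51 and 7.27. Normal sodium replicate 1 was the highest of all 12 arrays on this probe, although on the other globin probes the same array stood below all arrays of normal sodium with AngII. The difference made by AngII was 0.12 ± 0.22 on normal sodium, 0.42 without that array and -0.07 without normal sodium replicate 3, and its sign therefore depends on single arrays. Over the 12 arrays the Hba-a1 probes correlated at 0.222, and the dimmer one correlated at 0.975 with Alas2. No spot of any of the 10 probes was flagged as saturated or outlying. That array also had the lowest 75th percentile (1399) and the lowest weight (0.273) when arrays were weighted by how well they fitted their group, and whether either has a part in its high reading was not tested.

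Alas2, which makes the first enzyme of erythroid heme synthesis, differed most between groups of all the 10 probes. Its probe (A_44_P541461) read 0.90, 0.01 and 0.28 on normal sodium. With AngII the arrays read 1.84, 1.85 and 2.08. The low sodium arrays read 1.57, 0.77 and 0.81, and those of low sodium with AngII 1.31, 0.94 and 1.26. Each infused normal sodium ventricle was above every other ventricle of the study, and each uninfused normal sodium ventricle except replicate 1 was below every other. The difference was 1.53 ± 0.26, or 2.89-fold, on normal sodium (0.95, 1.85 and 1.80 within the slides) and 0.12 ± 0.26 on low sodium (-0.26, 0.17 and 0.44). The probe correlated at 0.984 with the dimmer Hbb probe.

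Ahsp, the chaperone of alpha-globin, did not follow the globins closely. Its brighter probe (A_43_P16887) read -2.56, -1.55 and -1.64 on normal sodium and -2.03, -1.54 and -0.19 with AngII. On low sodium it read -0.72, -2.07 and -1.66, and with AngII -1.67, -0.76 and -1.70. Each group with the exception of normal sodium had 1 array well above the other 2: AngII replicate 3 on normal sodium, replicate 1 on low sodium and replicate 2 on low sodium with AngII. The dimmer probe (A_64_P150726) read highest on the same 3 arrays, at -0.66, -1.35 and -1.29, and the Ahsp probes correlated at 0.986. All 4 groups overlapped on both probes. The brighter probe differed by 0.66 ± 0.51 with AngII on normal sodium, a value that ran from 0.13 to 1.05 over the alternative settings, and by 0.11 ± 0.51 on low sodium.

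Slc4a1, the band 3 anion exchanger, varied more within groups than between them. Its only probe (A_44_P289637) read 0.53, -2.22 and -1.94 on normal sodium and -2.18, 0.50 and -1.82 with AngII. On low sodium it read 0.05, -0.17 and -2.35, and with AngII -2.24, -0.78 and -0.35. An array near -2 and an array between -0.35 and 0.53 thus occurred in all 4 groups, and no pair of groups was separated. The group means lay between -1.21 ± 1.51 and -0.82 ± 1.33 (SD, n = 3), and AngII made a difference of 0.04 ± 0.95 on normal sodium and -0.30 ± 0.95 on low sodium. With intensities of 340 to 2327 against a local background of at most 29.5 the probe was measured on all arrays. Its correlation with Ahsp was -0.14 and with the mean of the globins 0.317.

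**Figure D2:**
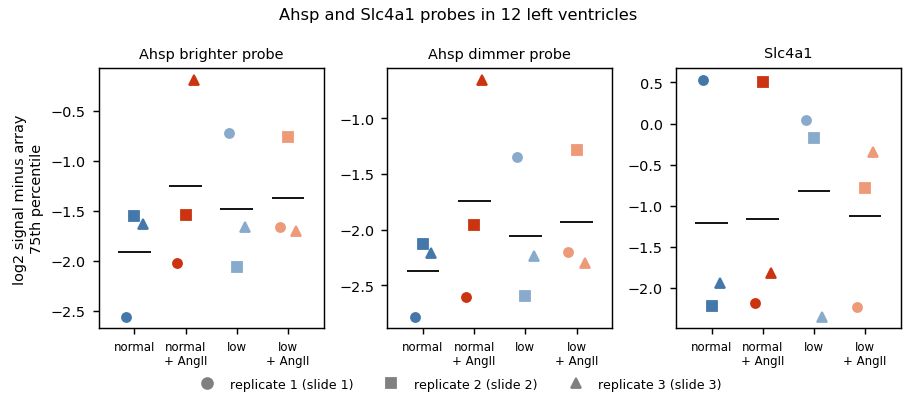
Level of the Ahsp and Slc4a1 probes (vertical axis, log2 signal minus the 75th percentile of the array) by sodium diet and AngII (horizontal axis), with 1 point per array, marker shapes for the replicate and slide, and a black line at the group mean of 3. On Ahsp 1 array is high in each of 3 groups and both probes pick the same arrays; on Slc4a1 every group spans from near -2 to between -0.35 and 0.53.

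Set against all probes, AngII on normal sodium gave higher values without overlap between the groups at 6 of the 10 probes, where 7.46% of the 19960 probes measured on all arrays did so. The 6 were both probes of Hbb and of Hbb-b1, the dimmer Hba-a1 probe and Alas2. All 10 differences were above 0, with a median of 0.80, beside 54.2% and a median of 0.02 over 20020 tested probes. After Benjamini-Hochberg adjustment limma called 0% of these tested probes in this comparison and 7.26% had an unadjusted p under 0.05. Since this comparison was in view when the genes were taken, nothing is read from the counts and no p is given for the 10 probes.

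AngII on low sodium, the comparison with no array in common with that one, separated the groups at 0 of the 10 probes, against 3.07% of all probes with higher values and no overlap. In limma 0 of the 10 reached an unadjusted p under 0.05 (1.71% of all probes did), and the adjusted p was 1.00 for each. The differences ran from -0.30 at Slc4a1 to 0.18 at the dimmer Hba-a1 probe. The intervals show what size of difference the 3 arrays per group leave: the 95% interval was -0.16 to 0.48 for the brighter Hbb-b1 probe, -0.32 to 0.35 for the brighter Hbb probe and -0.45 to 0.68 for Alas2. Without single arrays the difference on low sodium changed sign for the brighter Hbb probe, between -0.10 and 0.13, and for Alas2, between -0.02 and 0.38.

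The diets were compared without and with AngII, and both comparisons share their normal sodium arrays with the first one. Without AngII, low sodium stood above normal sodium by 0.42 ± 0.15 on the brighter Hbb-b1 probe, 0.63 ± 0.21 on the dimmer Hba-a1 probe and 0.66 ± 0.26 at Alas2. The groups did not overlap at 3 of the 10 probes, those of Hbb-b1 and the dimmer one of Hba-a1, against 5.03% of all probes. With AngII, low sodium stood below normal sodium by 0.38 ± 0.15, 0.55 ± 0.21 and 0.76 ± 0.26 on the same probes, and 7 of the 10 probes were lower without overlap, against 12.3% of all probes. These were the 6 globin probes and Alas2. Since the shared normal sodium arrays are those by which the genes were chosen, nothing is read from the counts in either comparison. Over all tested probes 7.03% and 11.1% had an unadjusted p under 0.05 without and with AngII, and limma called 0 of 20020 after adjustment in either.

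The difference between the AngII effects, low sodium minus normal sodium, was -0.79 ± 0.21 for the brighter Hbb-b1 probe, -0.70 ± 0.21 for the brighter Hbb probe, -1.19 ± 0.30 for the dimmer Hba-a1 probe and -1.41 ± 0.36 for Alas2. For Slc4a1 it was -0.34 ± 1.34. In limma's interaction term 5.06% of all tested probes had an unadjusted p under 0.05 and 0 of 20020 passed after adjustment. The interaction holds the arrays by which the genes were chosen, so for the 10 probes it is given as a size with its error.

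**Figure D3:**
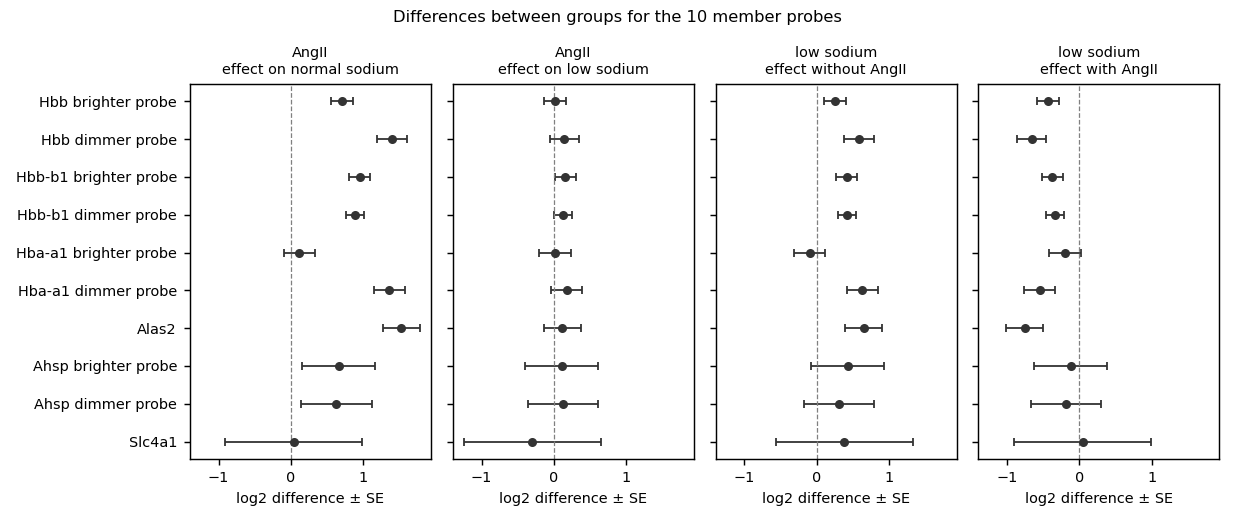
Differences between groups for the 10 probes (vertical axis) in 4 comparisons, as log2 difference with bars of 1 limma standard error (horizontal axis, n = 3 arrays per group), the dashed line at 0. On normal sodium AngII gave positive values from 0.71 to 1.53 at the beta-globins, the dimmer Hba-a1 probe and Alas2, on low sodium the same 6 probes lay between 0.02 and 0.18, and the Slc4a1 bars are the widest.

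Of 14 other globins listed, 9 had a probe and 8 were tested. The 3 with the largest differences under AngII on normal sodium were Hbb-bs at 1.20 ± 0.24, Hba-a3 at 1.17 ± 0.26 and Hbe2 at 1.00 ± 0.23. They are an adult beta-globin copy, an alpha-like copy and an embryonic-type beta-globin. Only these 3 of the list had an unadjusted p under 0.05 in limma, as did 7.26% of all tested probes. The lists were chosen with earlier results of these data known, so nothing is read from such counts here or in the lists below. On low sodium the 3 genes stood at 0.27, 0.24 and 0.12. Given the close copies in both clusters, how much of these signals is RNA of the adult globins was not tested. The globins that red cells do not use stood near 0: myoglobin (Mb), the oxygen store of heart muscle, at 0.06, cytoglobin (Cygb) at 0.11 and neuroglobin (Ngb) at -0.07. Embryonic zeta-globin (Hbz), also dim with readings from -5.59 to -4.88, was at -0.08 ± 0.17. The list had a median of 0.12.

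The other genes of heme synthesis did not go with Alas2. All 12 listed genes were tested, 4 stood above 0 and 8 below under AngII on normal sodium, the median was -0.08 and 0 reached an unadjusted p under 0.05. Alas1, the housekeeping counterpart of Alas2 that the heart uses, stood at -0.56 ± 0.30 and Alad, the next enzyme, at -0.30 ± 0.15. Fech, which puts iron into the ring, was at 0.17 and the mitochondrial porphyrin transporter Abcb6 at 0.27 ± 0.12. On low sodium the list split 6 to 6 with a median of 0.00.

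Among 20 genes of the red cell membrane and its skeleton, 12 had a probe and 8 were tested, with a median of 0.03. Beta-adducin (Add2), which caps actin in the red cell skeleton, stood at 1.38 ± 0.38, with low readings from -4.68 to -2.61. The Rh blood group protein Rhd stood at 1.02 ± 0.32, and both genes had an unadjusted p under 0.05. On low sodium they were at 0.17 and 0.11. Of the rest of the list Sptb, the beta-spectrin, was at -0.18 ± 0.17 and the glucose carrier Slc2a1 at 0.25 ± 0.25, and both are also expressed outside red cells.

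Erythroid transcription factors and receptors numbered 12, of which 10 were tested. Klf1, the factor that drives adult beta-globin, stood at 0.61 ± 0.18 on normal sodium and -0.04 ± 0.18 on low sodium. Its probe was dim, with readings from -5.74 to -4.75, though well above background on all 12 arrays. Gata2 was at 0.46 ± 0.17 and Lmo2, a partner of the GATA complex, at 0.41 ± 0.16. With Klf1 these made 3 of the 10 with an unadjusted p under 0.05. Of the 10 genes, 8 stood above 0 on normal sodium, with Kit at 0.00 among them. The 2 below 0 were the transferrin receptor Tfrc at -0.67 ± 0.71 and Zfpm1 at -0.23 ± 0.12. The erythropoietin receptor Epor was at 0.26 ± 0.20 on normal sodium and 0.47 ± 0.20 on low sodium. The list median was 0.26 on normal sodium and 0.20 on low sodium, beside -0.02 over all tested probes on low sodium.

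Enzymes of the red cell and genes of the reticulocyte numbered 20, with 13 tested, and 11 of the 13 stood above 0 on normal sodium with a median of 0.14. Mkrn1, a ubiquitin ligase, was at 0.63 ± 0.12 and Bpgm, which makes the 2,3-bisphosphoglycerate that lowers oxygen affinity, at 0.59 ± 0.25, and these 2 had an unadjusted p under 0.05. On low sodium 6 of the 13 stood above 0 with a median of -0.03. Of 14 genes of iron handling and hemoglobin clearance 13 were tested, 8 above 0, with a median of 0.05 and 0 with an unadjusted p under 0.05. Heme oxygenase (Hmox1), which breaks down heme, was at 0.55 ± 0.32, the iron importer Slc11a2 at -0.42 ± 0.22 and the heart's own hepcidin (Hamp) at 0.29 ± 0.28.

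**Figure D4:**
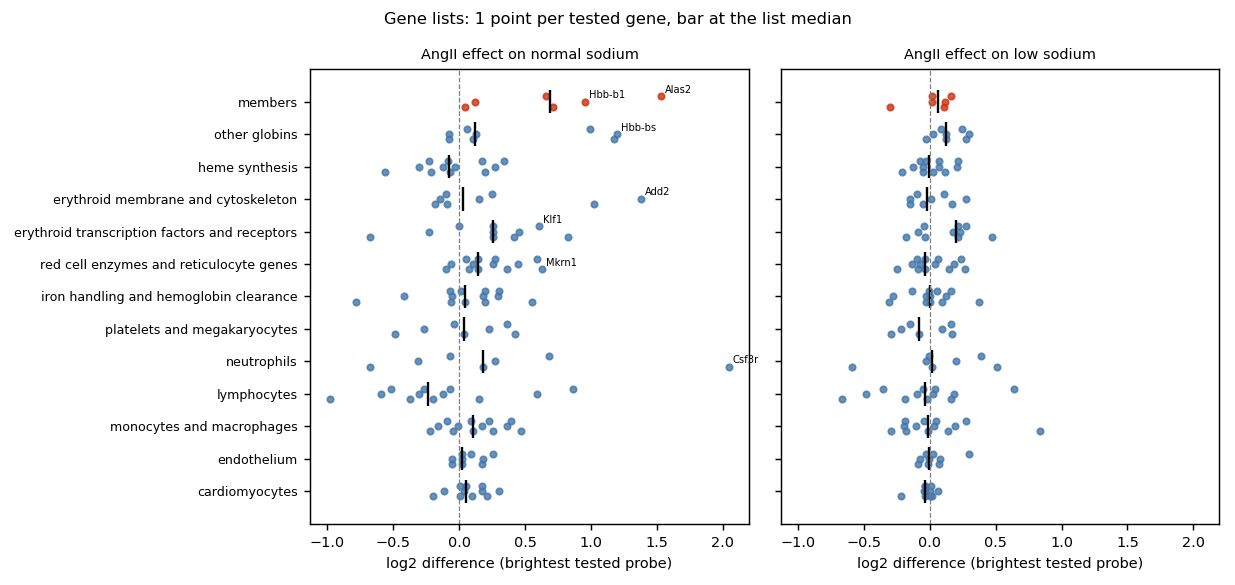
AngII effect (horizontal axis, log2 difference of the brightest tested probe) on normal sodium (left) and low sodium (right) for the genes of 13 lists (vertical axis), 1 point per gene, with a black bar at the list median, the 6 chosen genes in red and selected genes labelled on the left. On normal sodium Hbb-bs, Add2, Klf1 and Mkrn1 lie to the right of the medians of their lists. Those medians are between 0.03 and 0.26, and the Klf1 probe is dim. The heme synthesis list has a median of -0.08 and a highest value of 0.34. On low sodium the highest of these 4 genes is Hbb-bs at 0.27.

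Markers of the other blood cells were set beside the globins. Under AngII on normal sodium 4 of 7 tested platelet genes were above 0 with a median of 0.04, among them Pf4 (platelet factor 4) at 0.42 ± 0.23 and Gp1bb, part of the von Willebrand receptor, at -0.48 ± 0.19. Of 7 tested neutrophil genes 4 were above 0 with a median of 0.18, with S100a8 at -0.68 ± 0.42, Lcn2 at 0.68 ± 0.33 and Csf3r at 2.05 ± 0.73, the last well above background on 8 of 12 arrays. Of 12 tested lymphocyte genes 9 were below 0 with a median of -0.23, and the killer cell protease Gzmk stood at -0.98 ± 0.23. Genes of monocytes and macrophages were above 0 in 8 of 13 cases (median 0.11), of endothelium in 7 of 9 (0.02), of cardiomyocytes in 9 of 11 (0.06) and of the hypoxia response in 7 of 10 (0.11). The signal summed over the tested genes, relative to the 75th percentile, was 8.22 to 10.96 for platelets on normal sodium and 7.50 to 9.01 with AngII. For neutrophils it was 0.656 to 0.951 and 0.865 to 1.17, and for lymphocytes 1.73 to 2.43 and 1.53 to 1.73. For the 6 globin and erythroid genes the same sum was 287 to 449 and 448 to 485, where normal sodium replicate 1 with its high Hba-a1 reading is the 449. The platelet sum includes Vwf, which endothelium also makes and which stood at -0.27 ± 0.20, while Gp9, like Pf4, was above 0 (0.36 ± 0.23). The neutrophil sums lay higher with AngII, with overlap, and what part blood in the vessels has in the globin values was not tested.

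Over the 12 arrays the mean of the brightest Hbb, Hbb-b1 and Hba-a1 probes was most like Hbe2 among 11161 other genes (Pearson's r = 0.968), then Hbb-bs (0.916), the cell cycle phosphatase Cdc25b (0.912) and Hba-a3 (0.908). These were the 4 genes at 0.9 or more. The next 6 were Tex19.2, Rnls, Gnao1, Tuba3b, Ctrb1 and Add2, from 0.896 to 0.856. Such correlations over groups hold the group differences and the shared scaling of each array, and with so many genes and 12 arrays some are high in any data, so no p is given. Alas2 followed the globin mean at 0.957. The 3 genes that make up that mean, and so share in it, were at 0.963 (Hbb), 0.923 (Hbb-b1) and 0.611 (Hba-a1), while Ahsp and Slc4a1 were at 0.253 and 0.317.

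After the group means were subtracted, Alas2 still followed the globin mean at 0.880. What is left then is the spread between the arrays of a group, which holds slide and scaling effects beside differences between rats. The 10 genes most like the mean were then led by the muscarinic receptor Chrm3 (0.972), Park7 (0.958) and Lrrfip2 (0.954). Without that subtraction these 3 were at 0.194, -0.005 and -0.264. The mean holds the brighter Hba-a1 probe with its high reading on normal sodium replicate 1, whose part in this list was not tested. Hbe2 (0.912) was the only gene in both lists of 10. Genes most like single members were looked up after their values were seen. For Alas2 the 5 most alike were all globins, Hbb-b1 (0.982), Hbe2 (0.971), Hbb-bs (0.965), Hbb (0.960) and Hba-a3 (0.946). For Ahsp they included Hemgn (hemogen, an erythroid nuclear protein) at 0.860 and the erythroid factor Nfe2 at 0.841, behind the replication factor subunit Rfc2 at 0.861. For Slc4a1 they were Nus1 (0.853), Btg2 (0.833) and 3 genes that are not known red cell markers, and none of 11166 genes reached 0.9 with either Ahsp or Slc4a1.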

How the data were processed

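The members and gene lists were chosen with earlier results of these data known. Spot intensities were made, per the file headers, by Feature Extraction 10.7.3.1 of Agilent, which subtracts background within an array and scales nothing between arrays. The submitters' processing notes name version 11.0.1.1. The authors' deposited matrix holds log2 values whose normalisation method is not given in the sources used here. Other deposited columns hold 0 or 1 flags.

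Outlier-flagged spots were left out, and the log2 of the array's 75th percentile over non-control spots was subtracted. A probe was tested when at least 0.5 of its spots were well above background on all 3 arrays of a group (20020 of 30367 probes). Symbols came from RefSeq (GRCr8), which matched 18758 probes to 1 symbol. Models had 1 mean per group over 12 arrays (limma 3.58.1, R 4.3.3, Benjamini-Hochberg at 0.05) and were tested on simulated data. Named genes are all 6 members and up to 4 genes per list with the smallest p under AngII. The 10 genes most like the globin mean are also named. A few further list genes were chosen after their values were seen (Mb, Cygb, Ngb, Fech, Tfrc, Zfpm1, Kit). A gene outside the members is valued by its brightest tested probe. The number of arrays, 3 per group, limits precision. The p-values rest on the spread between the arrays of a group, which holds slide and array effects beside differences between rats. Same-numbered arrays share a slide. Alternatives were other normalisations, normexp background correction (offset 50, on median spot signals), filters, weights, the replicate block, the authors' values and leaving out each array. A scaling with each probe counted once was added after seeing the data. Some marker gene results are not reported here.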

Additional observations from a re-analysis of the deposited data

Results flagged for a closer look

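In Lmo2 and Cd3g, 2 genes of the marker lists, AngII moved the value one way on every slide on normal sodium. On low sodium it moved the value the other way on every slide. Lmo2, a partner of the erythroid GATA complex, differed by 0.50, 0.54 and 0.20 on normal sodium and by -0.15, -0.04 and -0.34 on low sodium, an interaction of -0.59 ± 0.23. Cd3g, a chain of the T cell receptor complex, differed by -0.15, -0.04 and -0.92 on normal sodium and by 0.08, 1.45 and 0.39 on low sodium, an interaction of 1.01 ± 0.35. Neither passed limma's interaction test, with an adjusted p of 0.857 for both. Zfpm1, of the same list as Lmo2, also met this description. With AngII it was lower on normal sodium (-0.23 ± 0.12) and higher on low sodium (0.18 ± 0.12), without overlap of the groups in either. The share of all tested probes that meet it is not given here. No probe of the 6 globin and erythroid genes met this description.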

How the results depend on the processing

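Over 22 alternative settings the 2 beta-globins, the dimmer Hba-a1 probe and Alas2 kept positive differences with AngII on normal sodium (Alas2 1.34 to 1.78), and the brighter Hba-a1 probe and Slc4a1 did not. Probes called over the whole array under AngII on normal sodium numbered 6 with normexp and 5 in the authors' values against 0 otherwise, and 0 to 9 when single arrays were left out (9 without low sodium replicate 1; of the AngII arrays, 3 without replicate 3 on low sodium and 2 without replicate 1 on normal sodium). On normal sodium the difference was 1.28 with normexp and 1.20 in the authors' values at the brighter Hbb-b1 probe. For low sodium without AngII leaving out single arrays gave 0 to 1 called probes, the 1 without normal sodium replicate 2 or 3. For low sodium with AngII there were 1 with quantile normalisation, 3 with normexp, 2 in the authors' values, 8 with array weights, 4 scaled by the median, and 0 to 3 without single arrays (3 without normal sodium replicate 1, 1 without the third AngII array on low sodium). The mean log2 change of Hbb, Hbb-b1 and Hba-a1 was 0.91 over the average of each gene's probes against 0.60 with the brightest (AngII on normal sodium), 0.37 against 0.19 (low sodium without AngII) and -0.80 against -0.53 (interaction), since the dimmer Hba-a1 and Hbb probes differed more. Values of AngII on low sodium that changed sign included Hbb (-0.11), Alas2 (-0.11) and the dimmer Hba-a1 probe (-0.06) with array weights, and Hba-a1 (-0.011) with quantile normalisation. Without single arrays they ran from -0.10 to 0.13 for Hbb, -0.057 to 0.11 for Hba-a1, -0.022 to 0.38 for Alas2, -0.20 to 0.49 for Ahsp and -1.06 to 0.26 for Slc4a1. The causes were not tested. With the replicate block (the slide, paired by number) limma called 0 of the tested probes in each comparison. Same-numbered arrays, which share a slide, correlated above 0.1 in 17 of 18 pairs after group means were removed (0.0469 to 0.432), against a median of -0.18 for other pairs. Removing the means of groups of 3 ties the same-numbered and other correlations together, so the -0.18 is no independent baseline. The fit without the block was kept since 1 pair was below 0.1, although each slide carries 1 array of every group. The standard errors and intervals above therefore leave the slide out of the model. Both fits called 0 probes, so the calls cannot show what the slide contributes.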
